A study of Mus musculus with 6 samples.

Results

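The genes described here carry glucose into the cell, break it down to lactate, export the lactate, or belong to the oxygen-sensing system built around hypoxia-inducible factor (HIF). They were chosen by name, as the rows of the count tables whose Ensembl identifier maps to 34 listed symbols, and all 34 were found among 56691 gene rows. RNA was sequenced from bone marrow-derived macrophages, primary phagocytes grown in culture from the marrow of 3 mice that the labels name a, b and c. Cells were seeded on day 4, exposed on day 6 to 2 µM thiothixene or to the solvent DMSO for 24 h, and lysed. Thiothixene is a thioxanthene used against psychosis and a dopamine receptor blocker. Both treatments were applied to cells of every mouse, which gave 3 libraries against 3, and no other agent or genotype is named. The sources used here do not give strain, sex, age or oxygen level. The comparison asked whether transcripts of these genes differed after the drug, and whether glycolytic enzymes moved apart from HIF targets that are not enzymes.

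Glycolysis turns glucose into pyruvate in the cytosol and yields ATP without oxygen, and macrophages lean on it when they are activated. HIF is a pair of proteins, an unstable alpha subunit and a stable partner, ARNT. With oxygen present, prolyl hydroxylases mark the alpha subunit and the VHL protein then directs its destruction. When oxygen is short the alpha subunit persists, binds DNA at sites with the core ACGTG or GCGTG, and raises transcription of glucose transporters, most glycolytic enzymes, pyruvate dehydrogenase kinase and a set of genes with other roles, such as the vessel growth factor VEGFA and the mitophagy receptor BNIP3.

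The libraries of a treatment differed widely, and this limits every value below. Counts assigned to genes lay between 18548095 and 20264090 in the thiothixene libraries and were 21327185, 10472349 and 22297520 in the DMSO libraries of mice a, b and c. Some libraries favoured transcripts by base composition: each gene's log2 deviation from its mean over the 6 libraries was taken, and the median for genes of GC content above 54.15% was subtracted from the median for genes below 44.74%. For mice a, b and c that GC difference was 0.66, -0.31 and -0.38 with thiothixene and -0.17, -1.14 and 1.26 with DMSO. By this measure thiothixene from mouse a and DMSO from mice b and c stood apart from the other 3 libraries. Summed macrophage markers were abundant everywhere, at 11480 to 13120 CPM (counts scaled to library size) with thiothixene and 10930 to 18760 CPM with DMSO, for 9 of 9 markers with counts. Neutrophil and precursor markers summed to 401 to 474.4 CPM with thiothixene and 415.4 to 933.1 CPM with DMSO, the DMSO library of mouse b being highest, and their part in the results below was not tested. Stromal markers summed to 73.52 to 366.7 CPM with thiothixene and 120.6 to 219.8 CPM with DMSO. The thiothixene library of mouse c was highest, and the part of these markers in the results below was not tested.

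The sequences before the transcription start are given first for 6 genes, because HIF is known to act through such sites in several of them. RefSeq promoter windows (GRCm38.p6) were matched by symbol for 32 of the 34 genes, and Bnip3l and Ndrg1 had none. In the 250 bases before the start, the motif ACGTG or its reverse complement CACGT was present in at least 1 window of 20 of these 32 genes (62.5%), against 18.5% of the 27025 genes with a window. A second core, GCGTG or CACGC, was present in 62.5% of the genes against 30.9%. Per window the shares were 50% against 16.6% for the first core and 52.2% against 28.2% for the second. The windows compared were not matched for GC content. The genes were also chosen by name for their part in glycolysis or the HIF system, so these shares are no independent test. The palindrome CACGTG holds ACGTG and CACGT at once and was counted at both positions. These are matches of letters, not measured binding. The glucose transporter Slc2a1, Hk2, Pgam1 and Pfkfb3 are shown because their levels below separated the treatments. Vegfa and Ndrg1 also separated them and are not shown. The Vegfa window at the gene's 5′ end holds 0 matches, and its window inside the gene holds 1. Ldha is shown because 1 of its 2 windows is dense in the motif while its level did not separate the treatments. Vhl is shown because its level lay on the low side and its window holds none. Whether the motif goes with the differences in level was not tested. Each run is 220 bases, 5′ to 3′ on the gene's strand, from 250 to 31 bases before the annotated start, and capitals mark ACGTG or CACGT.
Slc2a1 (chr4:119108495-119108714, plus strand): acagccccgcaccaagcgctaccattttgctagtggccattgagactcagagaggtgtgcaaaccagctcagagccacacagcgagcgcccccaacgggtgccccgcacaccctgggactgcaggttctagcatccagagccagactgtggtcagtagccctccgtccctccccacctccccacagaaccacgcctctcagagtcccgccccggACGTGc
Hk2 (chr6:82774485-82774704, minus strand): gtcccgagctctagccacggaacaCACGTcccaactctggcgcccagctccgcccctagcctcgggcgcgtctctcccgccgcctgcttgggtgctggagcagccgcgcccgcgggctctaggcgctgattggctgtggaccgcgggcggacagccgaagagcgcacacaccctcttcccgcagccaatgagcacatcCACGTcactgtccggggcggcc
Pgam1 (chr19:41911621-41911840, plus strand): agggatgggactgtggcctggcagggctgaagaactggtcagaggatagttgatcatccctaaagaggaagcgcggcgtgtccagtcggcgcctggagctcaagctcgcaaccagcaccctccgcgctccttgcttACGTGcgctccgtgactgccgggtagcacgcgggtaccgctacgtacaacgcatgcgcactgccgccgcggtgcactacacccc
Pfkfb3 (chr2:11502121-11502340, minus strand): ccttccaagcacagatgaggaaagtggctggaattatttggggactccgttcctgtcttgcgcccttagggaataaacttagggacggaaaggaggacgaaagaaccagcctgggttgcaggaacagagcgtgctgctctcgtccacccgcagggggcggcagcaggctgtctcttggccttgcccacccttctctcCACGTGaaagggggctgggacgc
Ldha (chr7:46845554-46845773, plus strand): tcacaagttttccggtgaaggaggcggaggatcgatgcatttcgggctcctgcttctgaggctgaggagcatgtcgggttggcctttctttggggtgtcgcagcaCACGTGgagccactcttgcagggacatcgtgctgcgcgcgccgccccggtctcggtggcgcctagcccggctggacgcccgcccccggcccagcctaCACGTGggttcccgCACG
Vhl (chr6:113623744-113623963, plus strand): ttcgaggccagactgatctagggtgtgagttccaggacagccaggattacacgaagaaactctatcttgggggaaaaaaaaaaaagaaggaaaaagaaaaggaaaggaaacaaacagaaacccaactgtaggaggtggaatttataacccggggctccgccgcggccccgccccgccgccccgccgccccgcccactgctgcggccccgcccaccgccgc

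Slc2a1 and Pgam1 carry the motif at 1 place and Hk2 at 2 places, near both ends of the run. Pfkfb3 has 2 windows: the run shown holds the palindrome, and the window of the other start holds 1 match that is not palindromic. Ldha also has 2 windows. The run shown holds the palindrome at separate places, its last 4 capitals belong to a further match that continues past the end of the run, and the window of the other start holds 0 matches. By role, a match was found for both transporters, 2 of 3 hexokinases, 2 of 6 enzymes of the hexose phosphate and triose steps, 4 of 6 enzymes of lower glycolysis, 1 of 3 regulatory enzymes, 4 of 5 oxygen-sensing genes, 3 of 5 HIF targets outside glycolysis and both collagen hydroxylases. Hk1, Gpi1, Pfkl, Pfkp, Tpi1, Gapdh, Eno1, Pfkfb4, Pdk1, Vhl, Adm and Mif had none in this window.

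No gene of the group passed the test, and neither did any other. In edgeR's quasi-likelihood test 0 of 33 tested genes reached an adjusted p of 0.05, as did 0 of all 14856 tested genes (0%), and every adjusted p in the group was 0.9998. Adm, the vasodilator peptide adrenomedullin, was too low to be tested. DESeq2, edgeR without its expression filter and limma-voom with library quality weights also called 0 of the genes, against 0.00815%, 0.00408% and 0.168% of all genes they tested, and limma-voom without weights called none at all. At an unadjusted p under 0.05, 3 of 33 genes were higher with thiothixene (Pfkfb3, Vegfa and Ndrg1), where 0.882% of all tested genes were. At that threshold 0 were lower, where 0.841% of all tested genes were. With the mouse as a replicate block, the unadjusted edgeR p was 0.0199 for Pfkfb3, 0.101 for Vegfa and 0.113 for Ndrg1. In levels scaled by TMM, a size factor per library, every thiothixene library lay above every DMSO library for 6 of 33 genes: Slc2a1, Hk2, Pgam1, Pfkfb3, Vegfa and Ndrg1. This was 18.18% of the tested group against 3.88% of all tested genes. Vhl alone of the group was lower in all 3, against 2.77% of all tested genes. Within mice, 9 of the 33 were higher with thiothixene in 3 of 3 mice (7.49% of all tested genes were) and 1 was lower in 3 of 3 (6.82%). Log2 fold changes, thiothixene over DMSO, were above 0 for 22 of 33 genes with a median of 0.12, while 45.3% of all tested genes were above 0 with a median of -0.04.

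**Figure D1:**
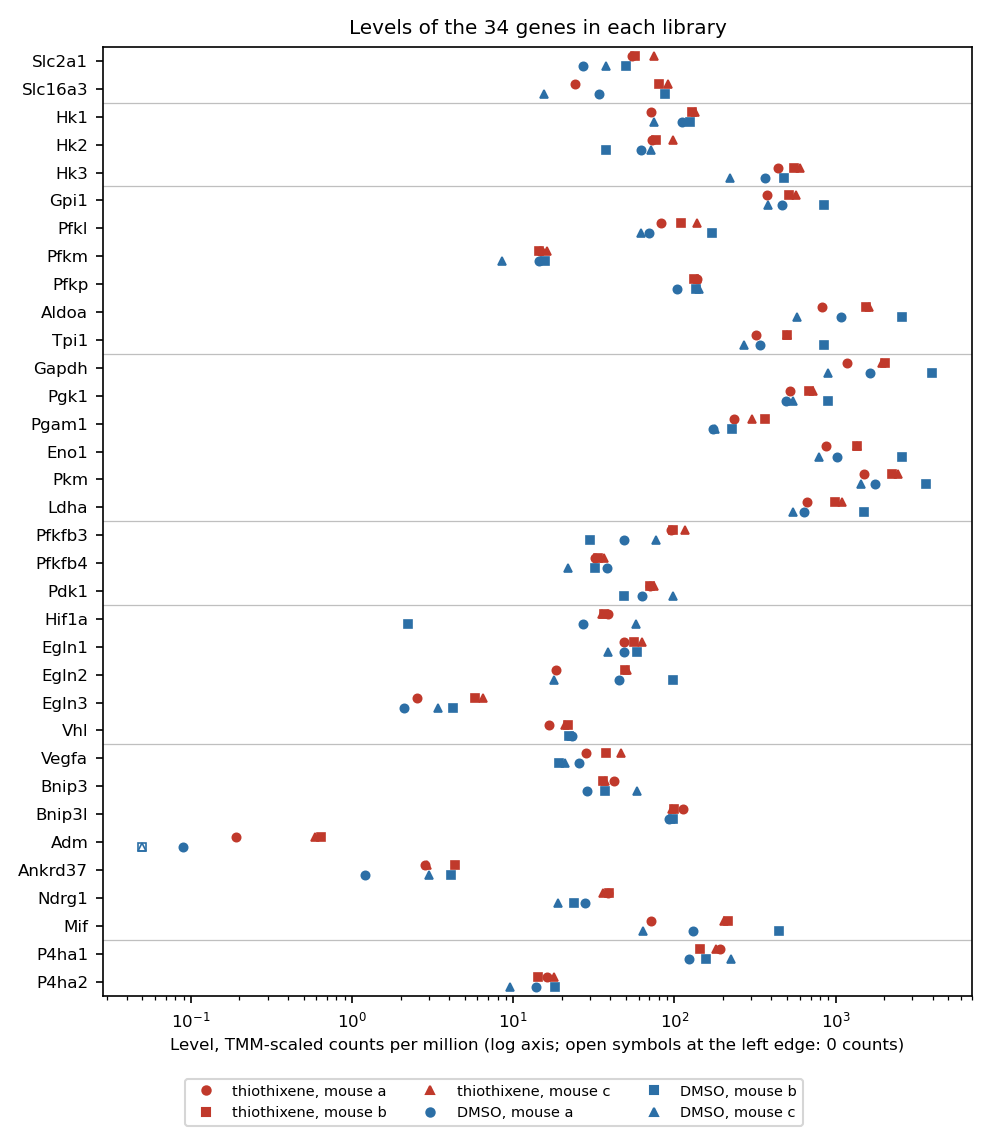
Level of each of the 34 genes in each library, in TMM-scaled CPM on a log axis, with red for thiothixene, blue for DMSO and a symbol per mouse; gray lines separate roles. For Slc2a1, Hk2, Pgam1, Pfkfb3, Vegfa and Ndrg1 all 3 red points lie right of all 3 blue points, while for Gapdh and Aldoa the blue points span both sides of the red ones.

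Per length, the abundant enzymes came first. Levels of different genes are compared as RPKM (library-scaled reads per kilobase of exon, mean of 6 libraries). Aldoa was at 471.6 RPKM, Gapdh at 470.2 RPKM and Pkm at 434.6 RPKM, and their ranges over libraries, 198.8 to 892.7, 218.4 to 966.9 and 287.6 to 729 RPKM, overlapped throughout, so these neighbours could not be ordered. Pgk1 (287.7 RPKM), Ldha (274 RPKM), the cytokine Mif (253.3 RPKM) and Eno1 (246.9 RPKM) followed, again with overlapping ranges. Tpi1 was at 168.3 RPKM, Pgam1 at 124.6 RPKM, Hk3 at 120.6 RPKM and Gpi1 at 81.32 RPKM. Outside glycolysis and apart from Mif, P4ha1 led with 41.45 RPKM. Slc2a1, Hk1, Hk2, Slc16a3 and Pfkfb3 lay close together between 10.24 and 14.29 RPKM, with overlapping ranges. The lowest were Ankrd37 (1.996 RPKM), Egln3 (1.536 RPKM) and Adm (0.156 RPKM).

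Slc2a1 encodes GLUT1, the glucose transporter of activated macrophages (ENSMUSG00000028645.12, chromosome 4, 119108711 to 119137983, plus strand, GRCm38). Its level was 54.2, 56.9 and 74.4 CPM with thiothixene in mice a, b and c and 27.2, 50.1 and 37.9 CPM with DMSO. The groups did not overlap, though the DMSO library of mouse b came within a few CPM of the thiothixene library of mouse a. The log2 fold change was 0.69 (SE 0.32, 95% interval -0.05 to 1.43), a 1.61-fold difference, and thiothixene was higher in 3 of 3 mice. The unadjusted edgeR p was 0.063.

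Slc16a3 encodes MCT4, which exports lactate. Levels were 24.3, 80.0 and 90.8 CPM with thiothixene and 33.9, 86.9 and 15.4 CPM with DMSO, so each group held both high and low libraries. The log2 fold change of 0.52 had an SE of 0.67, and thiothixene was higher in 1 of 3 mice.

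Hexokinases trap glucose in the cell by phosphorylating it. Hk2, the inducible form (ENSMUSG00000000628.11, chromosome 6, 82725025 to 82774454, minus strand), was at 72.1, 76.7 and 98.6 CPM with thiothixene and at 62.2, 37.5 and 71.4 CPM with DMSO. The groups were separated by less than 1 CPM, between thiothixene from mouse a and DMSO from mouse c. Hk2 differed by a log2 fold change of 0.53 (SE 0.32), higher in 3 of 3 mice. Hk3, a form found mainly in myeloid cells, was at 437, 555 and 605 CPM with thiothixene and at 365, 481 and 220 CPM with DMSO. It was higher in 3 of 3 mice, yet DMSO from mouse b lay above thiothixene from mouse a, and the log2 fold change was 0.58 (SE 0.35). Hk1, the form of most tissues, differed by 0.10 (SE 0.35) with levels of 71.6 to 134 CPM against 74.7 to 124 CPM.

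Hexokinase transcripts were mostly Hk3. Per length it made up 85.3%, 84.4% and 83.6% of the 3 hexokinases with thiothixene and 80.8%, 86.2% and 74.2% with DMSO. The share of Hk1 was 6.02%, 8.4% and 7.99% with thiothixene and 10.7%, 9.62% and 10.9% with DMSO, so the groups did not overlap (7.47% ± 1.27 against 10.4% ± 0.687, SD, n = 3 each). With the longest transcript as the length, the Hk1 share was 12.4% ± 2 against 16.9% ± 1.08. The level of Hk1 itself overlapped between groups, with a 95% interval of the log2 fold change from -0.69 to 0.90.

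The middle steps rearrange and split the sugar. Gpi1, Pfkl, Pfkm, Pfkp, Aldoa and Tpi1 had log2 fold changes from -0.22 to 0.23, 3 above and 3 below 0, and all 6 overlapped between groups. Aldoa, the muscle-type aldolase, was at 826, 1542 and 1612 CPM with thiothixene and at 1081, 2599 and 578.6 CPM with DMSO. DMSO from mouse b gave its highest and DMSO from mouse c its lowest value, 4.49-fold apart. Pfkp was the steadiest phosphofructokinase, at 132 to 138 CPM with thiothixene and 104 to 143 CPM with DMSO. Pfkl led the phosphofructokinases per length in 5 of 6 libraries, with 46%, 53.8% and 57.6% of the family with thiothixene and 46.5%, 63.4% and 41.2% with DMSO, where Pfkp was ahead in the last.

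Lower glycolysis runs from Gapdh to pyruvate kinase, and lactate dehydrogenase follows. Gapdh (log2 fold change -0.35, SE 0.53), Eno1 (-0.29, SE 0.46), Pkm (-0.14, SE 0.41), Pgk1 (-0.01, SE 0.32) and Ldha (0.03, SE 0.43) all overlapped between groups. Gapdh was at 1177, 2020 and 1938 CPM with thiothixene and at 1627, 3996 and 902.6 CPM with DMSO. Ldha, lactate dehydrogenase A, was at 666, 989 and 1094 CPM with thiothixene and at 638, 1511 and 543 CPM with DMSO. In both genes DMSO from mouse b was the highest library and DMSO from mouse c the lowest.

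Pgam1, phosphoglycerate mutase, stood apart from its neighbours (ENSMUSG00000011752.8, chromosome 19, 41911923 to 41918660, plus strand). It was at 236, 364 and 303 CPM with thiothixene and at 174, 227 and 178 CPM with DMSO. The groups did not overlap, with DMSO from mouse b just below thiothixene from mouse a. Pgam1 had a log2 fold change of 0.64 (SE 0.29, 95% interval -0.02 to 1.31), a 1.56-fold difference seen in 3 of 3 mice, with an unadjusted edgeR p of 0.057. A difference between Pgam1 and the other enzymes was not tested.

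Pfkfb3 makes the sugar bisphosphate that activates phosphofructokinase, and had the largest fold change of the 33 tested genes (ENSMUSG00000026773.20, chromosome 2, 11471433 to 11554077, minus strand). It was at 95.7, 98.03 and 116 CPM with thiothixene and at 48.7, 29.8 and 76.6 CPM with DMSO. All 3 thiothixene libraries were close together and above every DMSO library. Its log2 fold change was 0.99 (SE 0.37, 95% interval 0.14 to 1.85), a 1.99-fold difference in 3 of 3 mice, with an unadjusted edgeR p of 0.0273. Pfkfb4, which catalyses the same reactions, differed by 0.15 (SE 0.31). Pfkfb3 therefore made up 65.9%, 65.2% and 67.2% of the pair per length with thiothixene, against 45.2%, 37.4% and 69.4% with DMSO. The DMSO library of mouse c lay above all thiothixene libraries in this share, with the lowest Pfkfb4 level of all libraries. Pdk1, a pyruvate dehydrogenase kinase, differed by 0.04 (SE 0.32).

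**Figure D2:**
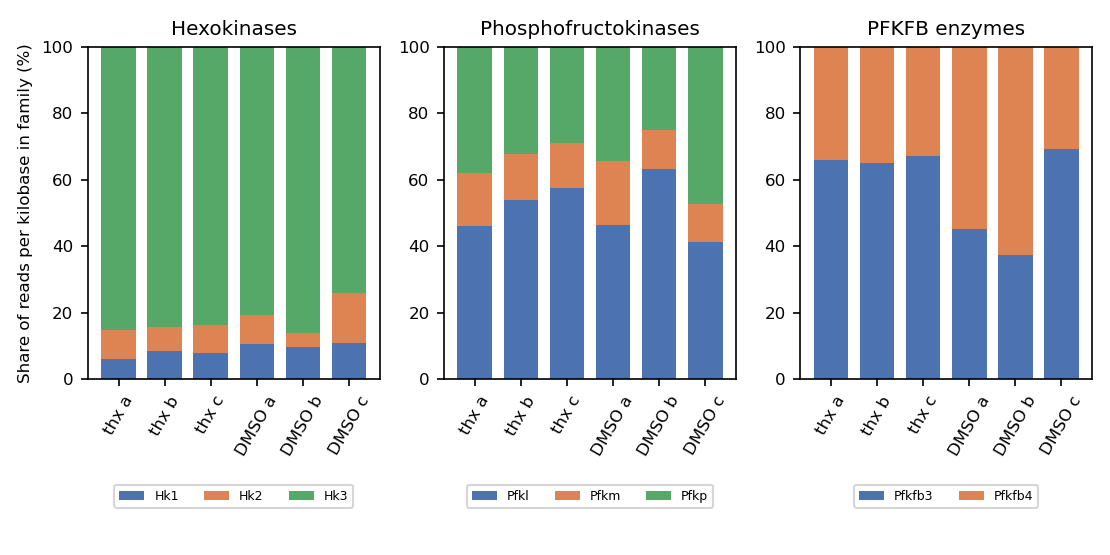
Share of each form in its enzyme family in each library, in percent of reads per kilobase, for hexokinases, phosphofructokinases and the PFKFB enzymes; thx marks thiothixene and the letter the mouse. Hk3 makes up 74.2% to 86.2% of hexokinase in every library, and Pfkfb3 is near 66% in all 3 thiothixene libraries but ranges from 37.4% to 69.4% with DMSO.

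Oxygen-sensing genes overlapped between groups apart from Vhl. Hif1a, the oxygen-regulated subunit, had 819, 682 and 719 counts with thiothixene and 610, 20 and 1349 counts with DMSO. In CPM this was 38.9, 36.6 and 35.5 against 27.2, 2.23 and 57.6, a 25.8-fold range that DMSO from mice b and c spanned alone. The log2 fold change of 0.34 had an SE of 0.83. Hif1a is low in GC content (41.34%), and the part of base composition in its low value in DMSO from mouse b was not tested. The antisense gene Gm15283 overlaps 330 exonic bases of Hif1a on the other strand and had 600 counts in that library and 2140 to 5188 in the others. Whether reads were counted by strand is not known here, so reads of the pair cannot be told apart.

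Among the hydroxylases that mark HIF, Egln1 (0.20, SE 0.29), Egln2 (-0.43, SE 0.62) and Egln3 (0.61, SE 0.53) all overlapped between groups in level. Egln3, itself a well known HIF target, was scarce, at 2.52, 5.80 and 6.46 CPM with thiothixene and 2.10, 4.24 and 3.41 CPM with DMSO, and was higher in 3 of 3 mice. Vhl, the substrate receptor that directs HIF destruction, was at 16.8, 21.9 and 20.9 CPM with thiothixene and at 23.3, 22.2 and 23.0 CPM with DMSO. The groups were separated by less than 1 CPM, and the log2 fold change was -0.20 (SE 0.29, 95% interval -0.85 to 0.45).

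HIF targets outside glycolysis gave mixed values. Vegfa, the vascular growth factor (ENSMUSG00000023951.19, chromosome 17, 46016993 to 46032369, minus strand), was at 28.2, 37.6 and 46.7 CPM with thiothixene and at 25.5, 19.1 and 20.9 CPM with DMSO. The groups did not overlap, and the closest pair came from mouse a. Its log2 fold change was 0.78 (SE 0.31, 95% interval 0.06 to 1.49), a 1.72-fold difference, with an unadjusted edgeR p of 0.0359.

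Ndrg1, a stress-responsive gene with a role in differentiation (ENSMUSG00000005125.14, chromosome 15, 66929318 to 66969640, minus strand), was at 38.6, 39.4 and 35.9 CPM with thiothixene and at 27.8, 23.7 and 18.9 CPM with DMSO. All 3 thiothixene libraries lay within a narrow band above the DMSO libraries. The log2 fold change was 0.69 (SE 0.29, 95% interval 0.04 to 1.34), a 1.61-fold difference, with an unadjusted edgeR p of 0.0403. Both Vegfa and Ndrg1 were higher in 3 of 3 mice.

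The other targets overlapped between groups or were too low to test. Bnip3l, a mitophagy receptor, was the steadiest gene of the group, at 97.2 to 114 CPM with thiothixene and 92.8 to 97.8 CPM with DMSO (log2 fold change 0.12, SE 0.25). Bnip3, its relative, was at 42.0, 35.9 and 37.0 CPM against 28.5, 37.3 and 58.4 CPM (-0.11, SE 0.33). Mif was at 71.4, 216 and 204 CPM with thiothixene and at 131, 447 and 63.4 CPM with DMSO, the same order of libraries as for Gapdh (-0.38, SE 0.71). Adm had 4, 12 and 12 counts with thiothixene and 2, 0 and 0 counts with DMSO, 28 against 2 in sum. A count of 0 allows up to 0.287 CPM in DMSO from mouse b and 0.135 CPM in DMSO from mouse c. These bounds are for counting error alone and leave out the TMM factor. Ankrd37 differed by 0.29 (SE 0.57) at 1.21 to 4.35 CPM. The collagen prolyl hydroxylases P4ha1 (0.04, SE 0.31) and P4ha2 (0.23, SE 0.35) overlapped as well.

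**Figure D3:**
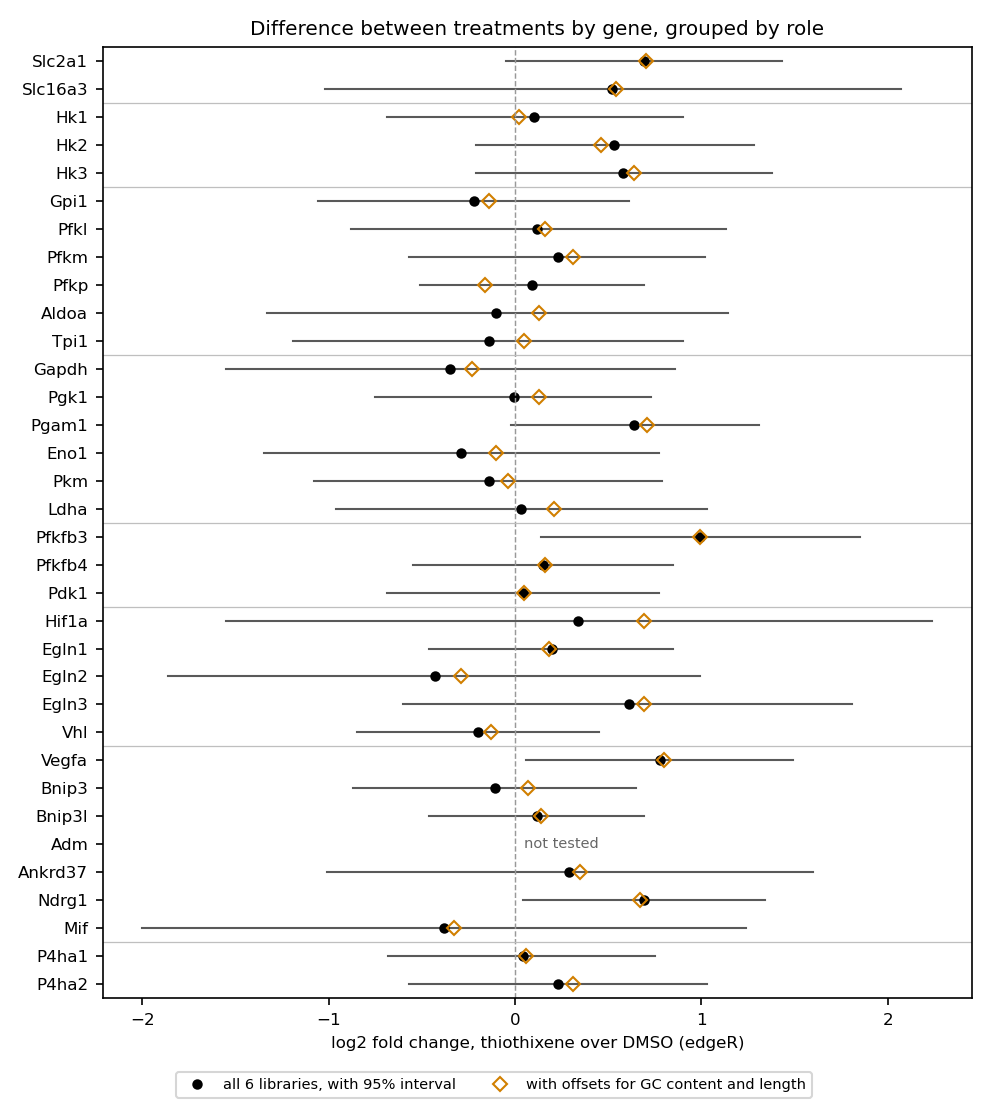
Log2 fold change of thiothixene over DMSO for each gene, grouped by role, from edgeR with all 6 libraries (black points with 95% intervals) and after the GC and length offsets (open diamonds). The intervals of Pfkfb3, Vegfa and Ndrg1 lie above 0, those of Slc2a1 and Pgam1 reach just below it, and the widest belong to Hif1a and Mif.

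The enzymes and the non-enzyme targets did not separate beyond the spread between libraries. The 18 glycolytic and regulatory enzymes had a median log2 fold change of 0.07, with 11 above 0, and the 6 tested targets (Vegfa, Bnip3, Bnip3l, Ankrd37, Ndrg1 and Mif) had a median of 0.21, with 4 above 0. Enzymes lay 0.14 lower, as a difference of medians of -0.14. In single libraries the enzymes' median deviation minus that of the targets was -0.32, -0.24 and 0.10 with thiothixene and -0.04, 0.42 and -0.29 with DMSO, with a pooled SD of 0.30. Neither list had a gene past the adjusted threshold, 3 of 18 enzymes and 2 of 6 targets did not overlap on the higher side (3.88% of all tested genes did not), and medians by role ran from -0.08 for lower glycolysis to 0.53 for the hexokinases and 0.61 for the transporters.

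Enzyme transcripts as a whole had the same mean share of gene counts in both groups, with a wide spread between libraries. The 18 enzymes took 0.78%, 1.15% and 1.2% of gene counts with thiothixene and 0.891%, 1.56% and 0.674% with DMSO, or 1.04% ± 0.229 against 1.04% ± 0.46 (SD, n = 3 each). The DMSO group held both extremes. Within mice the enzymes' median log2 ratio of thiothixene over DMSO was 0.04 in mouse a, -0.25 in mouse b and 0.77 in mouse c, so mice b and c moved in opposite directions.

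**Figure D4:**
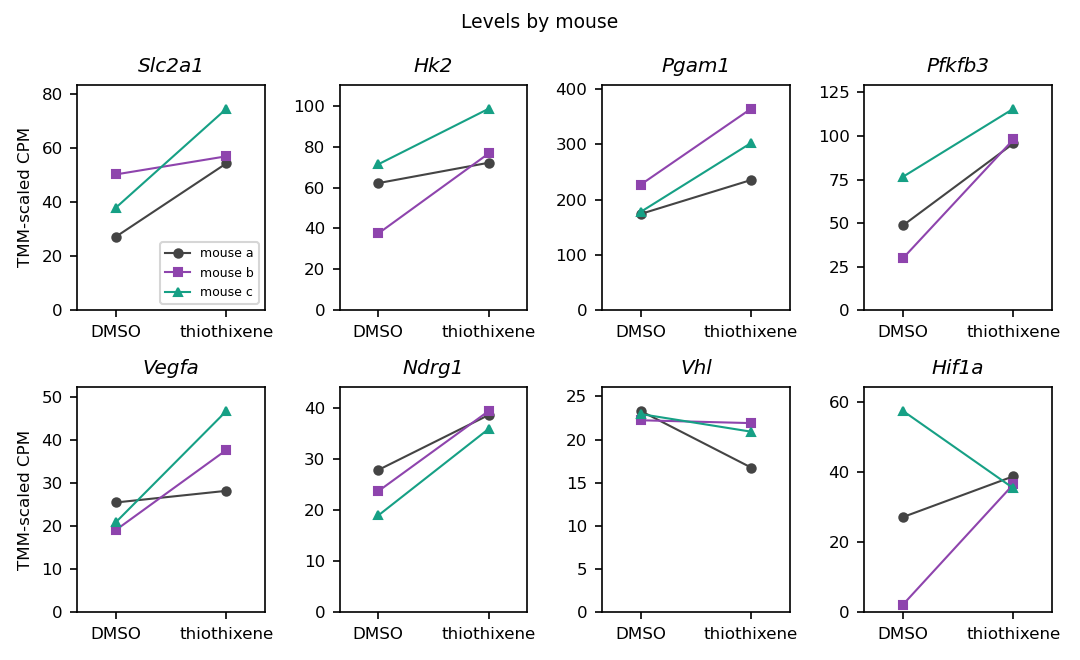
Levels of 8 genes in TMM-scaled CPM, DMSO on the left and thiothixene on the right, with a line per mouse and axes from 0. All 3 lines climb for Slc2a1, Hk2, Pgam1, Pfkfb3, Vegfa and Ndrg1, all 3 descend for Vhl, and the lines of Hif1a cross.

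From library to library the enzymes' level ran opposite to the GC difference, and the part of base composition in it was not tested. The enzymes' median GC content was 53.12%, against 49.39% for all tested genes. Tested genes of 49.39% to 54.15% GC content had median deviations of -0.07, 0.08 and 0.09 with thiothixene and 0.07, 0.2 and -0.21 with DMSO. The median log2 deviation of the 18 enzymes was -0.26, 0.17 and 0.24 for thiothixene in mice a, b and c and -0.22, 0.38 and -0.53 for DMSO. Ordered from low to high, the 6 libraries came in the reverse order of their GC difference given above. With GC and length offsets for each library, an alternative chosen after the data were seen, these deviations were -0.10, 0.14 and 0.17 with thiothixene and -0.28, 0.14 and -0.14 with DMSO. They were nearer 0 in 5 of the 6 libraries and farther from 0 in DMSO from mouse a, which then deviated most. Lower glycolysis moved most in DMSO from mouse b, from 0.83 to 0.25.

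**Figure D5:**
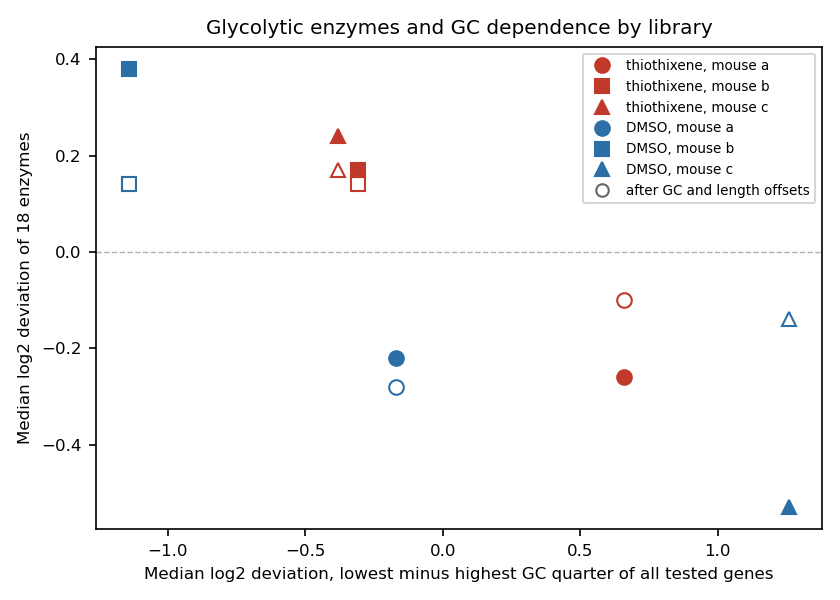
Median log2 deviation of the 18 enzymes in each library (vertical) against that library's GC difference over all tested genes, low minus high GC content (horizontal), filled before and open after the offsets for GC content and length. Filled points run from DMSO of mouse b (0.38 at -1.14) down to DMSO of mouse c (-0.53 at 1.26), and the open points span a narrower range.

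Separation of the 6 genes held under these offsets. With the offsets 7 genes were higher in all 3 thiothixene libraries, the 6 named above and Hk3, where 7.2% of all tested genes were. On the lower side 0 separated, where 3.91% of all tested genes did, so Vhl overlapped between groups with the offsets. At an unadjusted p under 0.05, 6 genes were higher in edgeR (Slc2a1, Hk3, Pgam1, Pfkfb3, Vegfa and Ndrg1) against 2.42% of all tested genes, and 0 passed the adjusted threshold. Pfkfb3 had the same log2 fold change of 0.99, Vegfa 0.80, Pgam1 0.71, Slc2a1 0.70, Ndrg1 0.67 and Hk2 0.46. Fold changes above 0 numbered 25 of 33 with a median of 0.16, and 50.1% of all tested genes were above 0.

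Leaving out libraries changed how many genes separated, and with fewer libraries more genes separate in general. Without DMSO from mouse b the count was 12, adding Hk3, Pfkl, Pfkm, Ldha, Bnip3l and P4ha2, against 8.45% of all tested genes, and without thiothixene from mouse a it was 9, against 9.04%. Without DMSO from mouse a the count was 6, against 10.6% of all tested genes, and without DMSO from mouse c it was 8, against 11%, so the group stood less far above all genes in these than with all libraries. Without all 3 libraries that stand apart, edgeR called 16 of 34 genes, all higher with thiothixene, where it called 4.02% of all tested genes higher. They included Slc16a3 (log2 fold change 1.34), Slc2a1 (1.28), Pfkfb3 (1.14), Pgam1 (0.94), Ldha (0.71) and Mif (0.69), but neither Hk2 nor Ndrg1 (adjusted p 0.0618 and 0.112). That fit held mice b and c for thiothixene and mouse a for DMSO, a lone library assumed to vary like the other libraries, so treatment and mouse cannot be told apart in it.

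Other genes of glucose use and hypoxia were given by a list of 66, of which 55 were tested. In edgeR 0 were called in either direction, 30 were above 0, and the median log2 fold change was 0.01. On the higher side 2 of 55 (3.636%) did not overlap between groups, a share near the 3.88% of all tested genes, and on the lower side 0, against 2.77%. Bhlhe40, a transcriptional repressor known as a HIF target, was at 62.1, 67.9 and 64.8 CPM with thiothixene and at 28.7, 28.6 and 25.9 CPM with DMSO. All 3 libraries of each treatment lay close together, those that stand apart included. Bhlhe40 had a log2 fold change of 1.23 (SE 0.26), higher in 3 of 3 mice, with an unadjusted edgeR p of 0.00125 and an adjusted p of 0.9998. Limma-voom with library quality weights gave Bhlhe40 an adjusted p of 0.0269.

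Epas1, which encodes the second HIF alpha subunit, was at 11.8, 10.8 and 9.82 CPM with thiothixene and at 5.40, 2.68 and 5.50 CPM with DMSO. The groups did not overlap, and the log2 fold change was 1.24 (SE 0.41) with an unadjusted edgeR p of 0.0151. Of the 3 genes of this list with the highest level per length, Taldo1 of the pentose phosphate pathway differed by -0.31 (SE 0.48), the lactate transporter chaperone Bsg by -0.32 (SE 0.38), and Txnip, which restrains glucose uptake, by -0.36 (SE 0.30), all with overlapping groups. The hexokinase-like Hkdc1, the liver and red cell pyruvate kinase Pklr, Pgk2, Hif3a and Ppp1r3c had 0 counts in all 6 libraries.

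Some rows hold reads that could belong elsewhere. Gapdh has 73 other annotated genes with a stretch of at least 150 bases at 98% identity or more, and these together held at most 735 counts in a library, while Gapdh held 21155 to 39294. Bnip3 shares 22.25% of its exonic bases with Gm45507 and Ankrd37 shares 22.68% with Lrp2bp, both on the opposite strand. Also on the opposite strand, Ndrg1 shares 6.352% with Gm17035 (134 to 481 counts per library). Slc2a1 shares 2.995% with Gm12868 (308 to 973 counts per library), again on the opposite strand. A second row carries the symbol Aldoa and held 2 to 42 counts per library, and it was left out. In bulk RNA, fewer cells of a type and less RNA per cell cannot be told apart.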

How the data were processed

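RNA libraries from 3 mice, each with a thiothixene and a DMSO library, were grouped by the treatment label and the mouse letter in the titles. The tables deposited by the authors hold raw counts for each gene. The mm10 build, DESeq2 1.44, STAR 2.7.11b, Trim Galore 0.6.10 and FastQC 0.11.8 were used, per the submitters' processing notes. Which program counted reads, whether by strand and on which annotation, is not given in the sources used here. Rows for no gene held 43.07% to 44.35% of each table and rows for reads not aligned 1.85% to 4.978%, and such rows stayed out of all tests. GENCODE vM21 (GRCm38) gave symbols, positions, lengths and GC content for 52073 identifiers without their version, and 4618 did not match.

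The main test was edgeR 4.0.16 in R 4.3.3: quasi-likelihood, robust, TMM, its expression filter, treatment alone, Benjamini-Hochberg at 0.05. SE is the absolute log2 fold change over the square root of F. Near-identical copies were sought with BLAST 2.17.0. The procedure was tested on simulated data with planted changes larger than any fold change of a member in the main test. Members and lists were chosen with earlier results of these data known. All members are named, and of other pathway genes the 3 of highest level per length and those whose groups do not overlap.

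The letters pair libraries by mouse. Deviations from the group means correlated at -0.131, 0.318 and -0.301 for mice a, b and c. Alternatives were the mouse as a replicate block, RLE factors, no filter, CPM of at least 1 in 3 libraries, limma-voom 3.58.1 with and without library quality weights, DESeq2 1.42.0, and leaving out libraries or mice. Added after the data were seen were GC and length offsets (5-df splines), with and without the block, and the separation of groups without each library.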

Additional observations from a re-analysis of the deposited data

How the results depend on the processing

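The biological coefficient of variation was 46% with 3 libraries a group, and a missed threshold does not show equal levels. Across all settings Slc2a1 (0.50 to 1.28), Hk2 (0.31 to 0.73), Hk3 (0.24 to 0.87), Pgam1 (0.49 to 0.94), Pfkfb3 (0.72 to 1.39), Egln3 (0.37 to 1.55), Vegfa (0.57 to 1.08), Bnip3l (0.03 to 0.18) and Ndrg1 (0.44 to 0.84) kept a log2 fold change above 0 and Vhl (-0.30 to -0.08) below 0. Calls among the 34 genes were 0 in every setting except 16 without the 3 libraries that stand apart. Over all genes the count was 1 without a filter, 2 in DESeq2, 25 with quality weights and 1105 without those 3 libraries, and over other pathway genes 1 with quality weights and 7 without those 3. Leaving out a library or a mouse gave enzymes minus targets from -0.58 to -0.02 and, for a library, from 6 to 12 of 33 genes separated on the higher side, where 5.14% to 11% of all tested genes were. The enzymes' share of counts, thiothixene minus DMSO, went from -0.181 to 0.26 percentage points.

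These log2 fold changes, none called with all libraries, changed sign, and the cause was not tested. With the replicate block, which pairs libraries by mouse and changed no call, Aldoa was 0.09, Tpi1 0.0059 and Pgk1 0.03. In limma-voom Aldoa was 0.13, Tpi1 0.03 and Pgk1 0.04, and Pgk1 was 0.03 without a filter. With the GC and length offsets Pfkp was -0.16, Aldoa 0.13, Tpi1 0.05, Pgk1 0.13 and Bnip3 0.07, and with the block too -0.05, 0.15, 0.08, 0.13 and 0.08. With quality weights Gpi1 was 0.11, Aldoa 0.46, Tpi1 0.45, Gapdh 0.23, Pgk1 0.40, Eno1 0.30, Pkm 0.30, Pfkfb4 -0.06, Egln2 0.11, Bnip3 0.25, Mif 0.57, Taldo1 0.33 and Bsg 0.10. Without the 3 libraries Gpi1 was 0.21, Aldoa 0.55, Tpi1 0.55, Gapdh 0.29, Pgk1 0.52, Eno1 0.41, Pkm 0.42, Pfkfb4 -0.11, Egln2 0.15, Bnip3 0.36, Mif 0.69, Taldo1 0.43 and Bsg 0.19.

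Leaving out a library or a mouse, the ranges were -0.20 to 1.40 for Slc16a3, -0.23 to 0.40 for Hk1, -0.55 to 0.19 for Gpi1, -0.31 to 0.74 for Pfkl, -0.04 to 0.41 for Pfkm, -0.04 to 0.18 for Pfkp, -0.62 to 0.68 for Aldoa and -0.52 to 0.52 for Tpi1. They were -0.80 to 0.44 for Gapdh, -0.19 to 0.31 for Pgk1, -0.68 to 0.40 for Eno1, -0.52 to 0.37 for Pkm, -0.37 to 0.64 for Ldha, -0.09 to 0.38 for Pfkfb4 and -0.16 to 0.36 for Pdk1. They were -0.20 to 1.34 for Hif1a, -0.03 to 0.36 for Egln1, -1.06 to 0.33 for Egln2, -0.39 to 0.26 for Bnip3, -0.07 to 0.68 for Ankrd37, -0.99 to 0.76 for Mif, -0.23 to 0.31 for P4ha1, -0.05 to 0.55 for P4ha2, -0.67 to 0.46 for Taldo1 and -0.57 to 0.20 for Bsg.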
